A study of Mus musculus with 4 samples.

Results

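The 10 genes described here encode the intracellular core of canonical Wnt signaling: the Dishevelled proteins Dvl1, Dvl2 and Dvl3, the destruction complex scaffolds Axin1, Axin2 and Apc, the kinase Gsk3b, beta-catenin (Ctnnb1) and the transcription partners Lef1 and Tcf7. They were chosen by name from the pathway, and all 10 were found by Ensembl identifier among the 50686 genes listed for the hip libraries and the 54838 listed for the knee libraries. In the absence of a Wnt ligand, Axin and APC hold beta-catenin beside GSK3, which marks it for degradation. When a ligand binds its receptors, Dishevelled recruits Axin to the membrane, beta-catenin accumulates, and it enters the nucleus to act with LEF/TCF factors on target genes such as Axin2. In cartilage the pathway is known for its part in chondrocyte maturation, joint formation and matrix turnover.

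The study asked how loss of Cbfb, the common partner of the Runx transcription factors, changed gene expression in mouse articular cartilage, and it sequenced 4 poly-A RNA libraries with 1 library per condition. The tissue labels give articular cartilage, while the extraction notes speak of osteoblasts. The hip control is labelled Cbfb f/f, with no Cre and a treatment of none, and the hip library labelled Cbfb-deficient came from Cbfb f/f;Col2a1-CreERT mice given tamoxifen (TMX). By the labels that pair also differs in Cre and in TMX, although the methods describe TMX or corn oil injection for both genotypes of this line. Both knee libraries came from Cbfb f/f;Aggrecan-CreERT mice, with oil for the control and TMX for the library labelled Cbfb-deficient. All 4 therefore carry the floxed Cbfb alleles, and recombination is limited to cells that use the Col2a1 or the Aggrecan promoter. Hip tissue was described by the authors as from mice of 6 weeks in a figure legend and of 2 months in the text, and knee tissue as from mice of 12 weeks. TMX was given at 75 mg/kg per day, from 2 weeks of age in the hip line and from 8 weeks in the knee line according to the methods, while a legend gives 6 weeks for the knee line.

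Reads counted on genes ranged from 34264456 to 38473120 per library, so that 3 counts, taken as the floor, corresponded to 0.0780 to 0.0876 counts per 1000000 counts (CPM). Cbfb had 2548 counts in the hip control and 2946 in its partner, a log2 ratio of 0.37 with a counting interval of 0.29 to 0.45, and 3796 and 4572 counts in the knee libraries, a log2 ratio of -0.08 (-0.14 to -0.01). A count over the whole gene cannot reveal a deleted exon, and the libraries are therefore named by their labels. Skeletal muscle genes, a list of 26, took 22.5% and 22.8% of all hip counts, control first, while their knee shares were 1.76% and 3.63%. The 16 chondrocyte genes, Col2a1 and Acan among them, took 0.0296% and 0.0309% of hip counts, with knee shares of 0.632% and 0.340%, so cartilage markers were detected but were a small share of both hip libraries.

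Within each pair a log2 ratio divides the count labelled Cbfb-deficient by the control count after scaling by the trimmed mean of M-values (TMM), with 0.5 added to each count. Its interval is a 95% Clopper-Pearson interval that covers counting error only, because no condition has a second library. A gene was called higher or lower when its log2 ratio reached 1 in size, with an interval excluding 0 and at least 10 counts over the pair. These calls compare individual libraries, and no p-value can be attached to them. The hip and knee tables list different numbers of genes, and HTSeq summary lines close the hip tables alone, so levels in the joints are given side by side and not compared.

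In the hip pair Apc and Gsk3b were called higher and Lef1 and Tcf7 lower, and the other 6 members moved by less than the size needed for a call. That is 4 of 10 members, 2 in each direction, beside 36.5% of 19856 genes called, 19.6% higher and 16.9% lower. In the knee pair Dvl1 was called higher and Lef1 lower, 1 of 10 in each direction, beside 15.9% of 21131 genes called, 8.96% higher and 6.92% lower. These counts are close to what the background shares give for 10 genes. The members' median log2 ratio was 0.09 in the hip pair, where that of all genes was -0.02, and 0.27 in the knee pair, where that of all genes was 0.01. The members' hip median was -0.17 by upper quartile scaling, where that of all genes was -0.28. Their knee median was 0.46 by library size alone, where that of all genes was 0.20. A scaling factor moves all genes of a pair alike. After trend removal the knee median was 0.062, beside -0.0016 for all genes. Trend removal, which subtracts the general trend of the ratios over transcript length and GC content, left 2 members called in the hip pair and 1 in the knee pair. The share of all genes called after this step was not computed, so those counts stand without a background. Counting intervals lay above 0 for 5 members and below 0 for 4 in the hip, beside 36.3% and 34.9% of genes, and above 0 for 7 and below 0 for 1 in the knee, beside 31.6% and 30% of genes. Lef1 was the only member called in both pairs, in the same direction, but with scaling by library size alone its knee call was lost and no member was called in both.

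**Figure D1:**
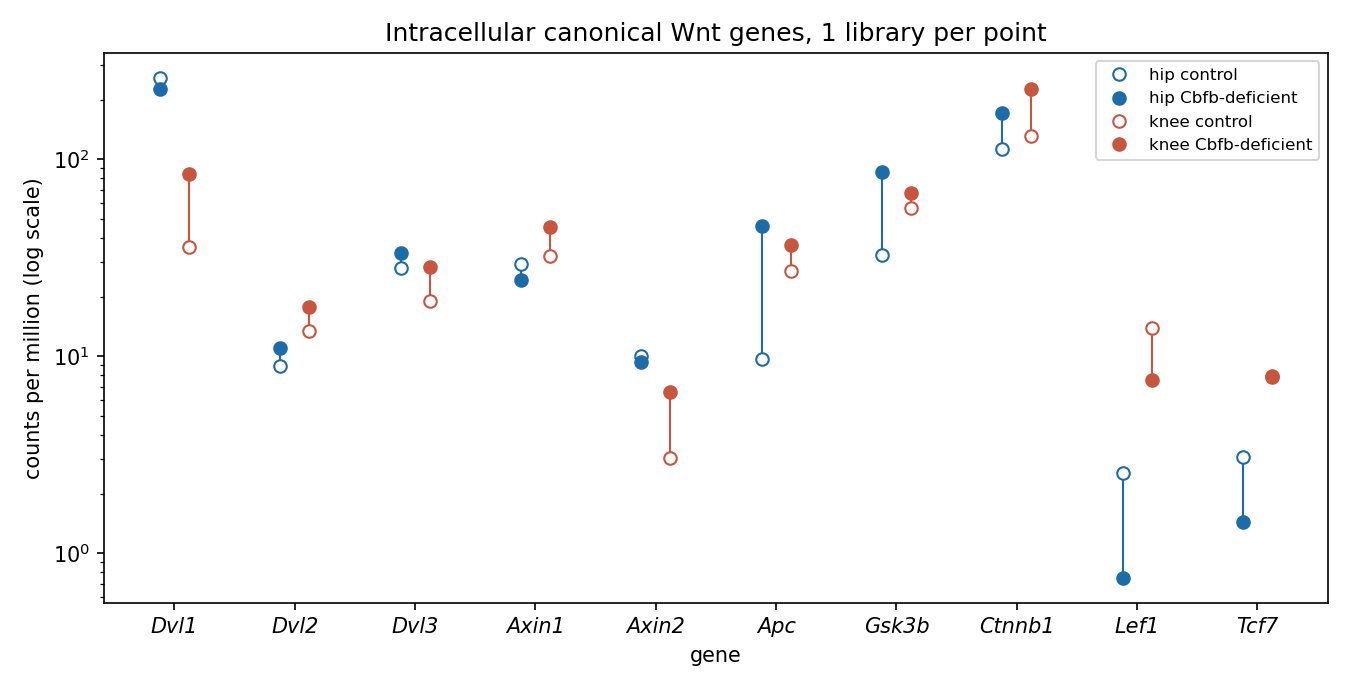
CPM (log axis) of the 10 genes in the 4 libraries, hip in blue and knee in red, with open circles for the control and filled circles for the library labelled Cbfb-deficient. Apc and Gsk3b are far apart in the hip pair, Lef1 is lower in the filled circle in both pairs, and the knee circles of Tcf7 lie on top of each other at 7.82 and 7.90 CPM.

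Among the Dishevelled genes, whose proteins relay the signal from the receptors, Dvl1 was called higher in the knee pair, and Dvl2 and Dvl3 were called in neither pair. Dvl1 (ENSMUSG00000029071, chromosome 4 of GRCm39, 155931797 to 155949171) had 258 CPM in the hip control and 226 CPM in the hip library labelled Cbfb-deficient. It had 35.9 CPM in the knee control and 84.2 CPM in its partner. The library labelled Cbfb-deficient was thus slightly lower in the hip pair and more than doubled in the knee pair. The log2 ratio was -0.18 (-0.23 to -0.14) in the hip pair and 1.04 (0.95 to 1.14) in the knee pair, where Dvl1 was the member called higher. After removal of the general trend over transcript length and GC content the knee ratio became 0.73, and with upper quartile scaling 0.97, which are both below the size for a call.

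Dvl2 (ENSMUSG00000020888, chromosome 11, 69891371 to 69903127) stood at 8.92 and 11.02 CPM in the hip, control first, and at 13.4 and 17.7 CPM in the knee. Its log2 ratios were 0.31 (0.10 to 0.53) and 0.21 (0.04 to 0.39). Dvl3 (ENSMUSG00000003233, chromosome 16, 20335636 to 20352768) stood at 28.0 and 33.5 CPM in the hip and at 19.1 and 28.4 CPM in the knee, with log2 ratios of 0.27 (0.14 to 0.39) and 0.38 (0.24 to 0.52). Neither gene reached the size for a call, and the small differences depended on the scaling. Trend removal turned the knee ratio of Dvl2 to -0.012 (-0.18 to 0.16), and upper quartile scaling gave intervals including 0 for Dvl2 in both joints, at 0.05 and 0.14, and for Dvl3 in the hip, at 0.0061.

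The make-up of the family shifted with Dvl1. Per transcript length, Dvl1 made up 81.7% of the Dishevelled counts in the hip control and 76.4% in its partner, against 41.4% and 53.9% in the knee libraries. As shares of raw counts, the hip values were 87.5% (exact binomial interval 86.9 to 88.1%) and 83.6% (82.8 to 84.3%), while the knee values were 52.5% (50.4 to 54.5%) and 64.6% (63.3 to 66.0%). The intervals do not overlap within either pair, and the shifts run in opposite directions. Beside the knee shift, 25 of the 26 skeletal muscle genes had intervals above 0 in that pair and none had one below, with a median log2 ratio of 1.03. All 15 adipocyte genes also had intervals above 0 there, with a median of 0.83. Of 13 endothelial genes 9 lay above 0 and 4 below, with a median of 0.34. Over all knee genes 31.6% lay above 0 and 30% below. In the hip pair, where Dvl1 was lower, 13 of the 26 muscle genes lay above 0 and 12 below. Adipocyte genes had 8 of 15 above 0 and 4 below in the hip, and endothelial genes 3 of 13 above and 6 below. The part of RNA from muscle, fat or vessels in the Dvl1 values was not tested. In bulk tissue, a different number of cells of a type and a different amount of RNA per cell cannot be told apart.

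Among the scaffolds, Apc gave the largest ratio of all members, and only in the hip pair was it called. Apc (ENSMUSG00000005871, chromosome 18), the large scaffold that binds beta-catenin and Axin, had 374 counts in the hip control and 1590 in the library labelled Cbfb-deficient, or 9.72 and 46.0 CPM. The log2 ratio was 2.25 (2.09 to 2.42), a 4.75-fold higher scaled count. The knee libraries had 933 and 1399 counts, or 27.2 and 36.6 CPM, with a log2 ratio of 0.24 (0.12 to 0.36). Apc was therefore higher in the library labelled Cbfb-deficient in both joints, by much more in the hip.

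Long transcripts were higher in general in the hip pair, which bears on Apc directly. Its longest annotated transcript spans 12960 bases, and the 980 hip genes in the same length class, from 8834 bases upward, had a median log2 ratio of 0.69 with quartiles of -0.12 and 1.42. Apc lay above the upper quartile of that class. After trend removal the hip ratio of Apc was 1.34 (1.18 to 1.51), still past the size for a call. The knee ratio was 0.04 (-0.08 to 0.17) after the same step, where the interval includes 0.

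Axin1 (ENSMUSG00000024182, chromosome 17, 26350235 to 26414789), the constitutively expressed scaffold of the destruction complex, had hip levels of 29.2 and 24.3 CPM and knee levels of 32.4 and 45.5 CPM. It was lower than its control in the hip pair, with a log2 ratio of -0.26 (-0.39 to -0.13), and higher in the knee pair, at 0.30 (0.19 to 0.41). Trend removal took these values to -0.62 and 0.08 (-0.03 to 0.19), so that the knee interval then included 0.

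Axin2 (ENSMUSG00000000142, chromosome 11, 108811169 to 108841609) is both a scaffold and a widely used readout of pathway activity, since beta-catenin and TCF act on its promoter. It had 384 and 324 counts in the hip libraries, or 9.98 and 9.37 CPM, and the log2 ratio of -0.08 (-0.30 to 0.13) could not be told from 0 at this depth and became 0.14 (-0.08 to 0.36) after trend removal. In the knee libraries it had 104 and 253 counts, or 3.04 and 6.62 CPM, with a log2 ratio of 0.93 (0.60 to 1.28) below the size for a call. Scaling by library size alone gave 1.12 (0.79 to 1.47), which passes it. Its share of the Axin counts per length moved from 28.4% to 30.9% in the hip and from 9.80% to 14.4% in the knee. As shares of raw counts the knee values were 8.56% (7.05 to 10.3%) and 12.7% (11.3 to 14.2%), which do not overlap, whereas the hip values of 25.4% (23.3 to 27.7%) and 27.8% (25.2 to 30.5%) do.

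Gsk3b (ENSMUSG00000022812, chromosome 16, 37909363 to 38066446), the kinase that phosphorylates beta-catenin in the destruction complex, had 1254 counts in the hip control and 2971 in its partner, or 32.6 and 85.9 CPM. The hip log2 ratio was 1.41 (1.31 to 1.5), a 2.65-fold higher scaled count. In the knee libraries it stood at 56.6 and 67.4 CPM, with a log2 ratio of 0.07 (-0.02 to 0.15) that depended on the scaling, at -0.0053 (-0.09 to 0.08) by upper quartile and 0.25 (0.17 to 0.34) by library size alone. The hip libraries were thus apart by more than counting error, while the side of the knee ratio was not settled. Gsk3b also has a long transcript, of 8342 bases, and the hip genes in its length class had a median log2 ratio of 0.58 and an upper quartile of 1.34. After trend removal its hip ratio was 0.72 (0.62 to 0.81), short of a call, and its knee ratio was -0.15 (-0.23 to -0.06).

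The paralog Gsk3a, which carries out the same step and is not among the 10 members, moved the other way in the hip. It had 4249 and 2361 counts there, a log2 ratio of -0.69 (-0.76 to -0.61), and a value of -0.11 (-0.18 to -0.04) after trend removal. Its transcript is shorter, at 2811 bases, and richer in GC, at 58.4% against 46.1% for Gsk3b. Its knee log2 ratio was -0.05 (-0.13 to 0.02). Per transcript length, Gsk3b made up 9.05% of the pair of kinases in the hip control and 29.8% in the library labelled Cbfb-deficient, against 20.1% and 21.4% in the knee. The raw-count shares, which are not corrected for length, were 22.8% (21.7 to 23.9%) and 55.7% (54.4 to 57.1%) for the hip, and 42.7% (41.3 to 44.2%) and 44.7% (43.4 to 46.0%) for the knee, where the intervals overlap. How much of the hip shift belongs to length and GC content was not tested beyond these values.

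**Figure D2:**
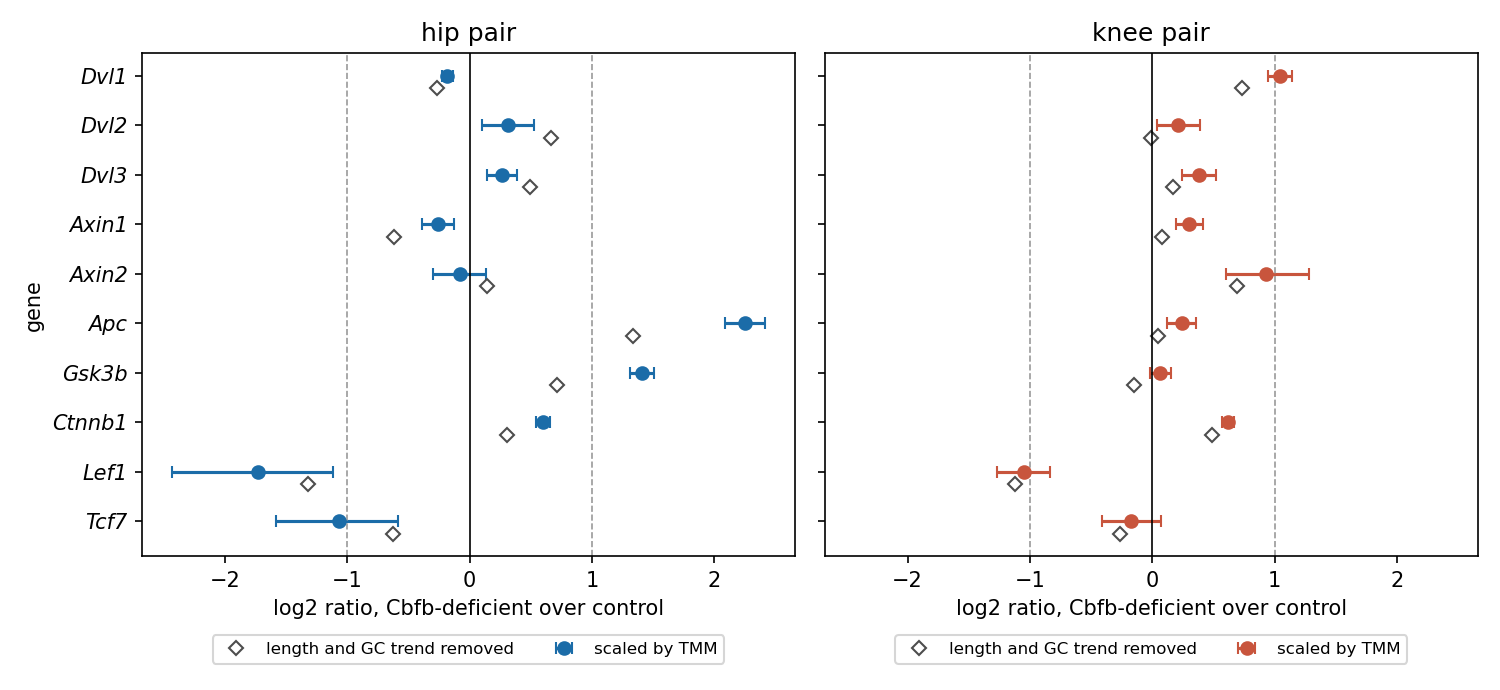
Log2 ratio within each pair, Cbfb-deficient label against control, for the 10 genes, hip pair left and knee pair right. Filled circles with bars are TMM-scaled ratios with 95% counting intervals, open diamonds are ratios after removal of the length and GC trend, and dashed lines mark a log2 ratio of 1 in size. Apc at 2.25 is the largest hip value, Dvl1 at 1.04 the largest knee value, and Lef1 is left of the dashed line in both panels by either measure.

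Ctnnb1 (ENSMUSG00000006932, chromosome 9, 120757422 to 120789579), the signal carrier of the pathway and a partner of cadherins at cell junctions, gave nearly the same ratio in both joints. The hip counts were 4354 and 5902, or 113 and 171 CPM, and the knee counts were 4475 and 8728, or 131 and 228 CPM. The log2 ratio was 0.60 (0.54 to 0.66) in the hip pair and 0.62 (0.57 to 0.67) in the knee pair. Ctnnb1 was thus about 1.5-fold above its control in both joints, short of a call. After trend removal the values were 0.31 and 0.49, and both intervals remained above 0. Ctnnb1 RNA is no measure of beta-catenin protein, whose amount is set largely by degradation.

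Lef1 (ENSMUSG00000027985, chromosome 3, 130903919 to 131018005), a DNA-binding partner of beta-catenin, was the member called lower in both joints. It had 98 counts in the hip control and 26 in its partner, or 2.55 and 0.752 CPM. In the knee libraries it had 475 and 291 counts, or 13.9 and 7.61 CPM. The control was the higher library in each pair. The log2 ratio was -1.73 (-2.44 to -1.12) in the hip pair and -1.05 (-1.27 to -0.84) in the knee pair. Trend removal left both calls in place, at -1.32 and -1.12. The knee value lay close to the size for a call by either measure, and scaling by library size alone took it to -0.86 (-1.08 to -0.65), which ends the knee call.

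Tcf7 (ENSMUSG00000000782, chromosome 11, 52143107 to 52174619), the related factor also known as TCF1, had 118 and 50 counts in the hip libraries, or 3.07 and 1.45 CPM, and a log2 ratio of -1.07 (-1.58 to -0.59). This call was lost after trend removal, where the ratio was -0.63 (-1.14 to -0.15). In the knee libraries Tcf7 had 268 and 302 counts, or 7.82 and 7.90 CPM, with a log2 ratio of -0.17 (-0.41 to 0.07) that became 0.014 (-0.23 to 0.26) with scaling by library size alone and -0.26 (-0.50 to -0.02) after trend removal. Tcf7 was thus lower in the hip pair, while the knee interval includes 0 or excludes it according to the scaling.

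The remaining family members Tcf7l1 and Tcf7l2 carried most of the LEF/TCF counts in every library. Tcf7l1 had log2 ratios of -0.21 (-0.42 to -0.0013) in the hip and -0.12 (-0.32 to 0.07) in the knee. Tcf7l2 had log2 ratios of -0.39 (-0.61 to -0.18) and -0.79 (-0.93 to -0.65). Per transcript length Lef1 made up 9.30% of the family in the hip control and 3.78% in its partner, and 23.2% and 16.7% in the knee libraries. As shares of raw counts the Lef1 intervals do not overlap in either pair, at 9.10% (7.45 to 10.98%) and 3.71% (2.44 to 5.39%) for the hip, then 22.2% (20.4 to 24.0%) and 16.2% (14.5 to 17.96%) for the knee. For Tcf7 the share per length was 11.3% and 7.31% in the hip libraries, where the raw-count shares of 10.96% (9.15 to 12.98%) and 7.13% (5.34 to 9.30%) overlap. Its knee shares per length were 13.1% and 17.4%, and the raw-count shares of 12.5% (11.1 to 13.98%) and 16.8% (15.1 to 18.6%) do not overlap.

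**Figure D3:**
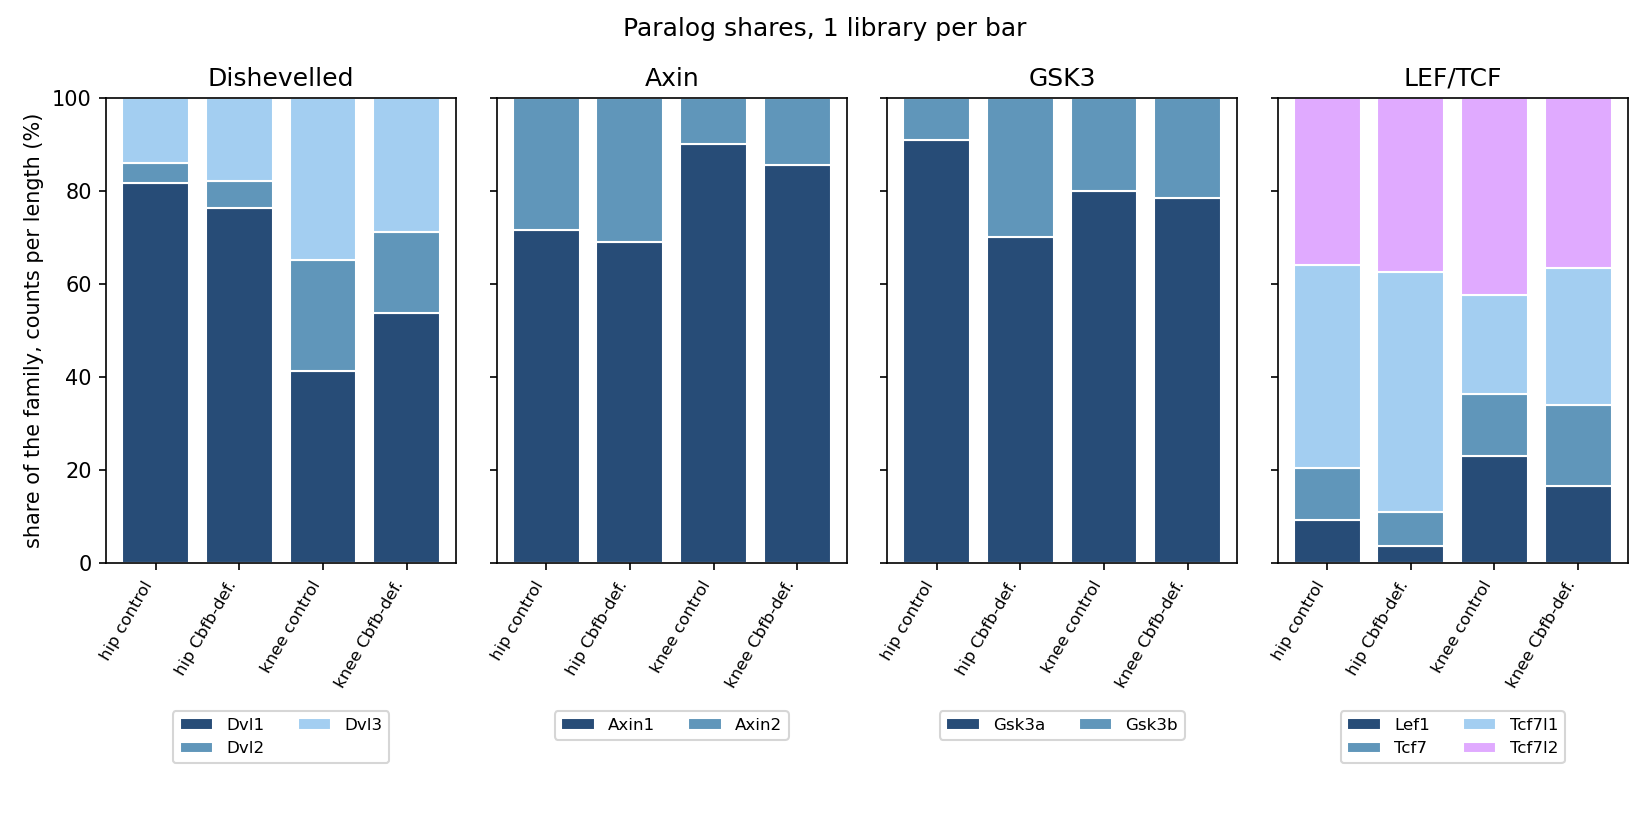
Share of each paralog in its family, in percent of counts per transcript length, with 1 bar for each library. Dvl1 takes 81.7% and 76.4% of hip Dishevelled counts, with knee shares of 41.4% and 53.9%, Gsk3b grows from 9.05% to 29.8% in the hip, and Lef1 shrinks in both pairs.

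Lef1 and Tcf7 are also strongly used by lymphocytes, Lef1 by T cells and early B cells and Tcf7 by T cells. The summed level of 17 T cell genes was 10.1 CPM in the hip control and 7.69 CPM in its partner, with 86.2 and 72.2 CPM for the knee. Of the T cell genes with at least 10 counts, 3 of 14 had intervals below 0 and 2 above in the hip pair, and 10 of 17 below and 2 above in the knee pair. The 11 B cell genes that could be matched summed to 38.8 and 26.4 CPM (hip) and to 633 and 382 CPM (knee), with 10 of 11 and 9 of 11 intervals below 0. None of these markers was at 0 in any library. Osteoblast and osteocyte genes, a list of 15, summed to 953 and 280 CPM in the hip control and its partner, with 8 intervals below 0 and 3 above, and to 14332 and 8071 CPM for the knee, with 9 below and 5 above. Chondrocyte genes had 9 intervals below 0 and 4 above in the hip pair, and 13 of 16 below and 3 above in the knee pair, with median log2 ratios of -0.47 and -1.70. The 11 erythroid genes summed to 5897 and 2235 CPM (hip) and to 100082 and 49694 CPM (knee). Their intervals lay below 0 for 9 and above for 2 in the hip, and below for 7 and above for 4 in the knee. Osteoclast genes had 3 of 10 below 0 and 4 above in the hip, and 8 of 11 below and 2 above in the knee. The part of RNA from lymphocytes, bone cells, chondrocytes or red cells in the Lef1 and Tcf7 values was not tested.

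The annotated starts of Lef1 and Axin2 are shown because Lef1 is the member called in both joints and Axin2 is the standard target of the pathway. Windows of 250 bases upstream of RefSeq starts (GRCm38.p6) were at hand for 8 of the 10 members, 13 windows in all, and were searched on both strands for the TCF/LEF word CTTTGAA, also with T for either or both of its last letters, and the Runx word TGTGGT, also with C as the third letter. A TCF/LEF word was found in 1 window, that of an internal start of Lef1, as CTTTGTA on the reverse strand, 147 to 141 bases before the start, while 14.8% of 32851 windows of this length in the RefSeq table hold such a word. A Runx word was found in 0 of the 13 windows and in 18.6% of all windows. A match is a run of letters and not a shown binding site, and a window without one says nothing of sites elsewhere. The sequences below are on the plus strand, 5′ to 3′, at chr3:131110047-131110296 for the first Lef1 start, chr3:131156044-131156293 for the internal Lef1 start and chr11:108920099-108920348 for Axin2, with the matched letters in capitals.
Lef1, first start: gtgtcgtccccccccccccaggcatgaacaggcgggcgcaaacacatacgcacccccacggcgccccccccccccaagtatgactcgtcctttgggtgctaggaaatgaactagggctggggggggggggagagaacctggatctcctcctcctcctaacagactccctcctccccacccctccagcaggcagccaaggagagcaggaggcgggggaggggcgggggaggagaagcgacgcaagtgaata
Lef1, internal start: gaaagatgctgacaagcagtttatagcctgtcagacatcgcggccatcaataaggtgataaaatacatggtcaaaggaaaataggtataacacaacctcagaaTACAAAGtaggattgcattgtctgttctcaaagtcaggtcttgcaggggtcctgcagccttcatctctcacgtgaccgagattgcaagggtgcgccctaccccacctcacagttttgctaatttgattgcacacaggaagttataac
Axin2: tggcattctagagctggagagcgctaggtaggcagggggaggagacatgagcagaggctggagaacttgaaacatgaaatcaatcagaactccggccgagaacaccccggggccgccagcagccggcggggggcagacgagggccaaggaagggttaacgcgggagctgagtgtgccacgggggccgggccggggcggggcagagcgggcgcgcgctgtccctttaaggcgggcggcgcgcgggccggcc

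Levels of different members can be compared only per length, as CPM per kilobase of the longest transcript (RPKM). Ctnnb1 and Dvl1 headed the hip order, with Dvl1 at 33.0 and Ctnnb1 at 23.0 RPKM in the control and Ctnnb1 at 34.7 and Dvl1 at 28.9 RPKM in the library labelled Cbfb-deficient. Their counting intervals do not overlap in either library, so by this length the order of these genes was inverted between the libraries. Over merged exons it was not, with Dvl1 at 24.0 and Ctnnb1 at 13.9 in the control, and 21.0 and 20.9 in its partner. Ctnnb1 at 34.7 RPKM lay above 96.1% of the genes with a count in that library. Lef1 had the lowest value in both hip libraries, at 0.692 and 0.204 RPKM, but its interval overlaps that of its neighbour in each, and Tcf7 stood at 0.837 and 0.394 RPKM. In the hip control the intervals of Tcf7, Apc and Lef1 overlap in turn, as do those of Axin1 and Gsk3b and of Dvl2 and Axin2. An overlap does not show that levels are equal, and the differences between neighbours were not tested. In the library labelled Cbfb-deficient, Gsk3b moved from the fifth to the third place, at 3.91 and then 10.3 RPKM, and Apc from the ninth to the sixth, at 0.750 and then 3.55 RPKM. In that library the intervals of Axin1 and Apc overlap, as do those of Tcf7 and Lef1.

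Ctnnb1 was also the highest member in both knee libraries, at 26.5 and 46.4 RPKM, and Axin2 was the lowest, at 0.525 and 1.15 RPKM. Dvl1 moved from the fourth place to the second, at 4.58 and then 10.7 RPKM. Lef1 moved from the sixth place to the ninth, at 3.76 and then 2.07 RPKM. In the knee control the intervals of Axin1 and Dvl1, of Dvl3 and Lef1, and of Dvl2, Tcf7 and Apc in turn overlap, whereas in the library labelled Cbfb-deficient only Tcf7 and Lef1 do. The order depends on the length used. Over the merged exons, which for Lef1 span 9337 bases against 3683 for its longest transcript, Lef1 and not Axin2 came last in the knee library labelled Cbfb-deficient, and Dvl1 rather than Ctnnb1 headed the hip library labelled Cbfb-deficient.

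The size of the length and GC trend differed between the joints. In 20 classes of GC content the median log2 ratio of the hip pair ran from 0.98 in the lowest class to -0.63 in the highest, and over 20 length classes it lay between -0.48 and 0.69. In the knee pair the GC classes lay between -0.06 and 0.08 and the length classes between -0.41 and 0.23. Apc, Gsk3b and Ctnnb1, the members with the lowest GC content (44.6%, 46.1% and 47.0%), were also those with the highest hip ratios. With the trend removed, Apc and Lef1 were the members still called in the hip pair and Lef1 in the knee pair. Over 10 genes no relation was fitted.

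**Figure D4:**
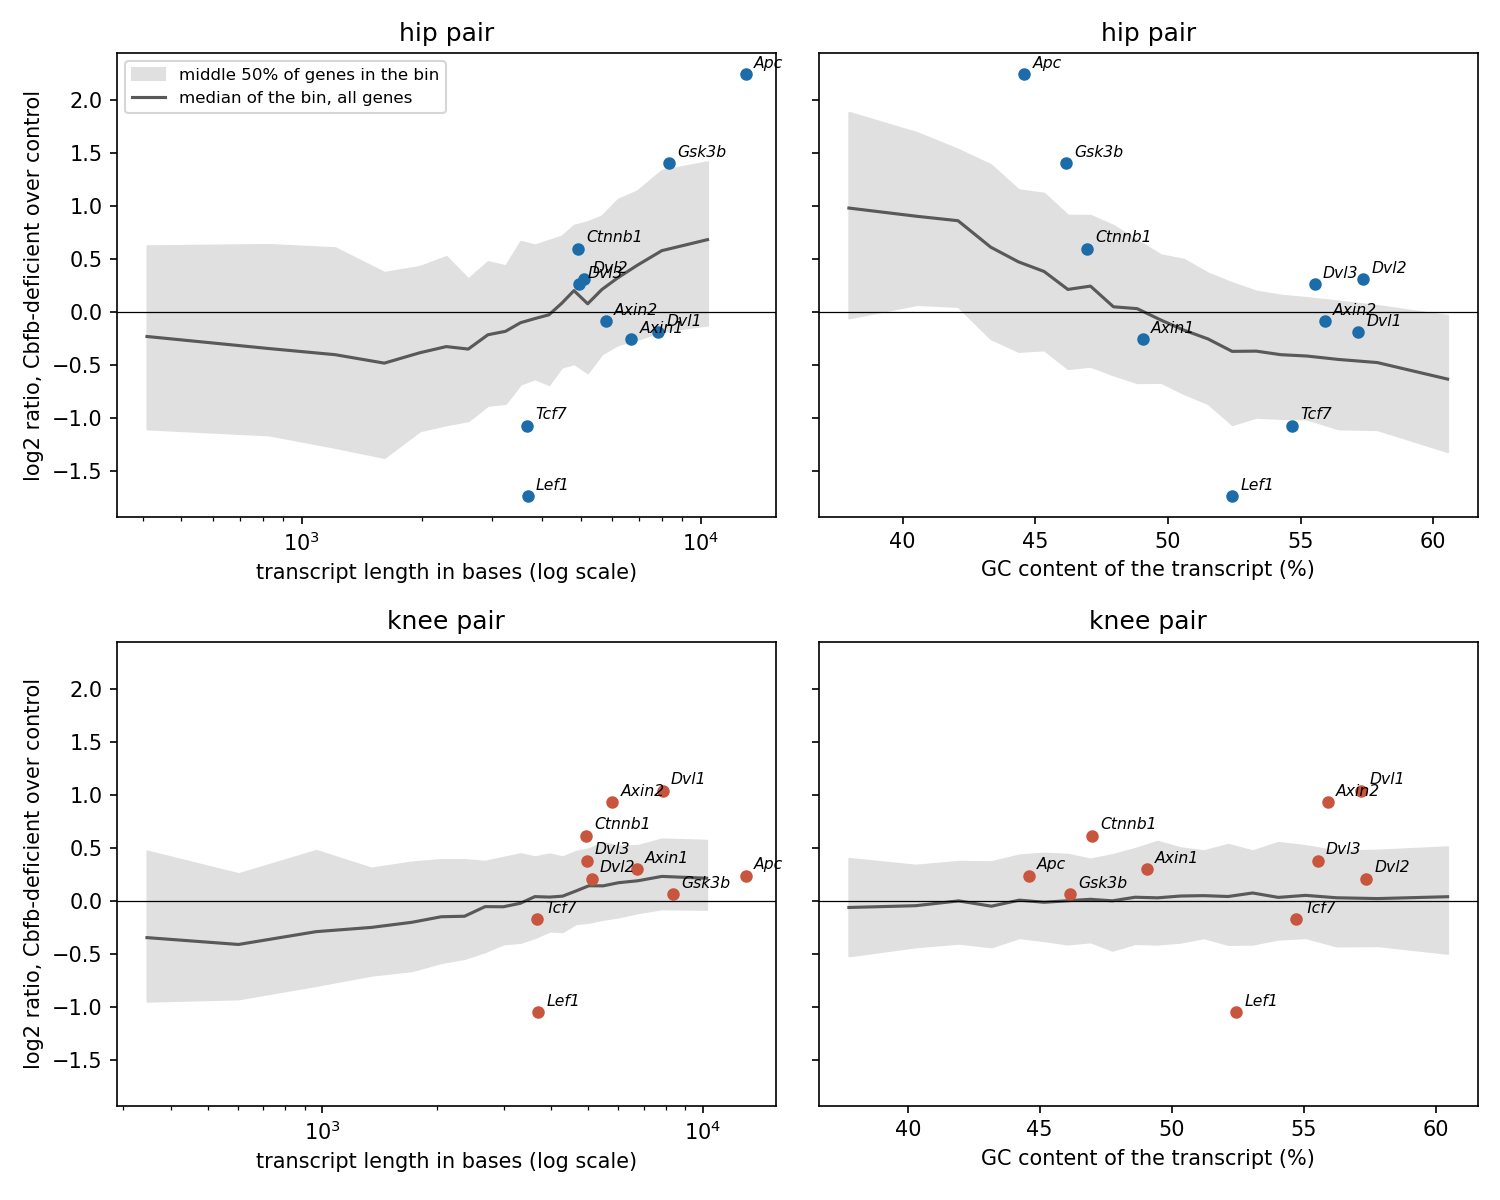
Log2 ratio of the 10 genes against the length of the longest transcript (log axis) and its GC content, for the hip and the knee pair. Points are the 10 genes, and the line with its band gives the median and quartiles of all genes in 20 classes, drawn at the median length or GC content of each class. Apc lies above the band in the hip pair, to the right of the last class median in length, and Lef1 lies below the band in both pairs.

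Intervals above 0 in both pairs were found for Ctnnb1, Apc, Dvl2 and Dvl3, 4 of 10 members, beside 17.4% of the 17594 genes with at least 10 counts in each pair. Lef1 alone lay below 0 in both, beside 13.4% of those genes, and Axin1 and Dvl1 lay on opposite sides, beside 20.6%. After trend removal, Ctnnb1 and Dvl3 remained above 0 in both pairs, Lef1 and Tcf7 were below 0 in both, and Gsk3b and Dvl1 were on opposite sides. The matching shares of all genes were not computed after trend removal.

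A change common to both joints was tested in a single edgeR quasi-likelihood fit over the 4 libraries with the joint as a block, which treats the joints as 2 pairs and leaves 1 residual degree of freedom. No member passed a Benjamini-Hochberg adjusted p of 0.05, and of all 17594 genes 0 did, which is 0% of them, while 1044 genes (5.93%) had an unadjusted p under 0.05. Lef1 had a log2 fold change of -1.46 (edgeR adjusted p = 0.816) and lay below its control in both pairs. Apc had a log2 fold change of 1.15 (edgeR adjusted p = 0.816) and lay above its control in both pairs. These were the 2 of 10 members with an unadjusted p under 0.05. The same design in DESeq2 called 46 of the 14524 genes given an adjusted p (0.317%), none of them a member, and the smallest adjusted p among members was that of Lef1 at 0.487. The joint also stands for the Cre line, the age, the kind of control and the set of genes counted, which cannot be told apart.

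The other parts of the pathway were described with lists of genes. Of 26 further intracellular genes of the canonical pathway, 7 were called higher and 0 lower in the hip pair, with a median log2 ratio of 0.27, and 1 higher and 0 lower in the knee pair, with a median of 0.06. Over all genes 19.6% were called higher and 16.9% lower in the hip pair, and 8.96% and 6.92% in the knee pair. After trend removal 2 were called higher and 1 lower in the hip, and 0 in the knee, with no share of all genes computed for that step. Amer1, a membrane-binding partner of APC, had the largest hip ratio, with 122 and 873 counts and a log2 ratio of 3.0 (2.73 to 3.29). Pygo1, a nuclear co-activator of beta-catenin, had 769 and 2581 counts and a log2 ratio of 1.91 (1.79 to 2.03). Usp34, a deubiquitinase that acts on Axin, had a log2 ratio of 1.95 (1.80 to 2.11). Tnks, the tankyrase that marks Axin for degradation, had a log2 ratio of 1.59 (1.43 to 1.76). All 4 have long transcripts, of 8477 to 14526 bases, and Amer1 and Pygo1 kept their calls after trend removal, at 2.35 and 1.22, while Tnks at 0.92 and Usp34 at 0.69 did not. The knee call was Apc2, a paralog of Apc, from 18 and 49 counts, with a log2 ratio of 1.08 (0.30 to 1.97).

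Among 22 feedback and target genes of the pathway, 21 had at least 10 counts in the hip pair, where 2 were called higher and 9 lower, with a median log2 ratio of -0.21. For the knee, 2 of 22 were called higher and 2 lower, with a median of -0.31. These counts stand beside the same background, 19.6% of genes higher and 16.9% lower in the hip pair, 8.96% and 6.92% in the knee pair. After trend removal 3 were called higher and 9 lower in the hip, where the median moved to -0.85, and 1 higher and 3 lower in the knee. The background shares are from ratios before trend removal, and none was computed after it. Lower in the hip were Rnf43, a ubiquitin ligase that removes Wnt receptors, with 55 and 2 counts and a log2 ratio of -4.31 (-7.70 to -2.70), Sox4 at -1.67 (-1.93 to -1.42), Fgf18 at -1.66 (-2.36 to -1.05) and Ccnd1, which encodes cyclin D1, at -1.52 (-1.88 to -1.17). The hip genes called higher were Notum, from 2 and 19 counts, with a log2 ratio of 3.13 (1.36 to 6.56), and Znrf3, at 1.07 (0.72 to 1.43), which are named here because there were only 2.

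In the knee pair Notum, a secreted enzyme that inactivates Wnt ligands, was lower, with 393 and 145 counts and a log2 ratio of -1.78 (-2.07 to -1.50). Sp5 was the other gene called lower, from 12 and 2 counts, with a ratio of -2.67 (-6.13 to -0.76), named for the same reason. Nkd1, a feedback inhibitor that binds Dishevelled, was higher, with 57 and 223 counts and a log2 ratio of 1.61 (1.20 to 2.07). Fzd7, a Wnt receptor, was also higher, at 1.08 (0.92 to 1.24), and at 0.91 after trend removal, short of a call. Nkd1, Fzd7 and the member Axin2 were thus above their knee control, and Notum, Sp5 and the member Lef1 below it. Nkd1 lay on the other side in the hip pair, with 181 and 69 counts and a log2 ratio of -1.22 (-1.65 to -0.82), and Notum likewise changed sides between the joints.

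The junction partners of beta-catenin were described because Ctnnb1 serves both compartments. Of 14 such genes 0 were called higher and 2 lower in the hip pair, Cdh4 at -2.24 (-2.75 to -1.79) and Cdh3 at -2.07 (-3.71 to -0.87), with a median of -0.22, beside 19.6% of all genes higher and 16.9% lower. Of the 13 with at least 10 counts in the knee pair 2 were called higher, Vcl at 1.74 (1.60 to 1.88) and Cdh13 at 1.00 (0.86 to 1.15), and 1 lower, Cdh3 at -4.50 (-6.08 to -3.44) from 115 and 6 counts, beside 8.96% and 6.92% of all genes. The hip value of Cdh3, from 30 and 6 counts, was named after its value was seen. After trend removal 1 gene was called higher and 3 lower in each joint, with medians of -0.60 for the hip and -0.15 for the knee. Cdh13, at 0.95 in the knee, was then no longer called. No share of all genes was computed for that step. Ctnna1, the alpha-catenin that binds Ctnnb1 at the junction, had log2 ratios of 0.50 (0.42 to 0.58) in the hip and -0.07 (-0.13 to -0.01) in the knee, beside the 0.60 and 0.62 of Ctnnb1.

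Some members share exon bases with a gene on the opposite strand, and the use of strand in counting is not stated. Dvl2 shares 1504 of its 6664 exon bases with Acadvl, an enzyme of fatty acid oxidation, whose hip counts were 11794 and 5536 and whose knee counts were 527 and 1709. Acadvl had log2 ratios of -0.93 and 1.35, and its part in the Dvl2 values was not tested. Dvl1 shares 3495 of 10761 exon bases with Tas1r3, which had between 21 and 29 counts in every library. Lef1 shares 1518 of 9337 with Lef1os1, which had 0 counts in both hip libraries and 2 and 14 in the knee. Ctnnb1 shares 765 of 8167 with Ulk4, which had between 7 and 44 counts, and Gsk3b shares none.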

How the data were processed

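Poly-A RNA of 4 mouse libraries was analysed, with 1 library for each condition in each joint. The authors deposited whole-number counts of reads per Ensembl gene, without normalization. The submitters' processing notes name mm10, STAR 2.0 and FastQC 0.11.3, while the paper's methods name another build and STAR version, so no coordinate was taken from the reads. The hip values end with HTSeq summary lines, 25.8% and 24.6% of the reads listed, which were left out. The knee values have no such lines, and their counting program, annotation and strand setting are not given in the sources used here. Symbols, positions, transcript lengths and GC content came from GENCODE vM39 (GRCm39), which matched 91.8% of hip and 92.6% of knee identifiers.

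Counts were scaled within each pair by TMM over genes with at least 10 counts over the pair (edgeR 4.0.16, R 4.3.3), and ratios were taken with 0.5 added. The trend was removed by subtracting median log2 ratios of 20 classes of transcript length, then of 20 classes of GC content, in 2 rounds. Joint change was tested by edgeR's quasi-likelihood test with Benjamini-Hochberg adjustment, and DESeq2 1.42.0 was an alternative. The study states a paired analysis, and the joint was the block. The libraries of a joint are matched by the joint alone, and nothing ties them to a shared litter or day. Other steps used Python 3.11.15, numpy 2.4.6, pandas 2.3.3, scipy 1.17.1 and matplotlib 3.10.9, and were tested on simulated data.

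The members and lists were chosen with earlier results of these data known. All 10 members are named, with Cbfb and the paralogs Gsk3a, Tcf7l1 and Tcf7l2, and up to 4 called genes per list and pair with the largest log2 ratio and at least 50 counts over the pair. Cell type lists were set beside the Dvl1, Lef1 and Tcf7 values with these data known, so an agreement in direction is not a test. The directions do not agree throughout. Alternatives were other scalings, count filters, an added count of 2, a log2 ratio of 0.5 for a call, raw shares, merged exon lengths and a fit without the block. Intervals cover counting error only, and reads without molecular identifiers are not independent molecules.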

Additional observations from a re-analysis of the deposited data

Results flagged for a closer look

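Axin1 and Dvl1 lay on opposite sides of 0 in the joints, with counting intervals that exclude 0 in both. Axin1 had a log2 ratio of -0.26 in the hip pair and 0.30 in the knee pair. After trend removal the knee value of Axin1 was 0.08 (-0.03 to 0.19), so that it no longer lay on the opposite side, while Gsk3b then did, at 0.72 and -0.15. Dvl1 had a log2 ratio of -0.18 in the hip pair and 1.04 in the knee pair. The difference between the joints was not tested, because each joint has 1 library per condition, and 20.6% of the genes tested in both pairs did the same.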

How the results depend on the processing

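Of 80 hip ratios of single members under 8 alternatives, 77 kept their direction and their call or lack of one, as did 72 of 80 knee ratios, and 48 of 50 fold changes over both joints kept their direction and their side of the adjusted threshold. After trend removal, 2 rather than 4 hip members were called and 1 rather than 2 knee members, the knee median became 0.062 in place of 0.27, and the knee ratios turned to -0.15 for Gsk3b and -0.012 for Dvl2, as did the hip ratio of Axin2 to 0.14. Upper quartile scaling shifted the median of all hip genes by -0.26 and turned the members' hip median from 0.09 to -0.17, and it left 1 knee member called, with Dvl1 at 0.97 and Gsk3b at -0.0053. Library size alone shifted the median of all knee genes by 0.19 and gave a members' knee median of 0.46. It ended the knee call of Lef1 (-0.86), made Axin2 a call (1.12) and turned Tcf7 to 0.014 and the fold change of Axin1 over both joints from -0.07 to 0.11. A log2 ratio of 0.5 for a call gave 5 hip members and 4 knee members. Shares of all genes called within a pair were computed for TMM-scaled ratios and a size of 1 alone. The cause of these differences was not tested. Without the replicate block, that is without pairing by joint, 0 of 10 members passed the adjusted threshold, as with it, the fold change of Dvl1 turned from 0.34 to -0.18, and 109 of 17594 genes had an unadjusted p under 0.05 against 1044. Over the other fits edgeR called 3 genes with library size alone, 1 with DESeq2 size factors and 44 with no filter on low counts, and no member was among them. Levels per merged exon length moved past counting error for 36 of 40 values, and paralog shares, taken over raw counts or merged exon length, for 64 of 88. No library could be left out, because each condition has 1. Depth limits Lef1 and Tcf7 most, with 26 and 50 counts in the hip library labelled Cbfb-deficient.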
